A study of Vuilleminia comedens with 3 samples.

Results

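Sugar transporters of Vuilleminia comedens, a crust-forming basidiomycete that decays attached branches of broadleaved trees, were followed in mycelium growing in beech wood. They were taken as every transcript whose best-matching database entry was named as a carrier of sugars, hexoses, glucose, monosaccharides, xylose, maltose, lactose or cellodextrins. This gave 27 of the 22605 annotated transcripts, out of 81106 in the assembly. The 27 transcripts came from 18 assembler genes and matched 9 database entries. The study held 1 group and therefore no comparison of conditions. Strain VcWVJH1 was grown into sterilised beech blocks of 2 cm3 for about 8 weeks, starting from plates with 0.5% malt extract. Blocks bearing this strain on both sides were then kept in contact for 7 days at 20 °C, held by a band for the first 3 days, and RNA was taken from the part of each block next to the contact face. The labels call the 3 libraries independent replicates from separate blocks, and they are named A, B and C here because the count columns could be tied to the group but not to a replicate number.

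Wood polymers are cut outside the hypha by secreted enzymes, and the glucose, short glucose chains, xylose and other sugars set free must then cross the plasma membrane. Most fungal carriers for these sugars belong to the major facilitator superfamily (MFS), proteins of several membrane-spanning helices that work by facilitated diffusion or by symport with protons. For symport, the gradient is kept by the plasma membrane proton ATPase. Inside the cell, hexokinase phosphorylates the hexose.

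Counts on assembled transcripts came to 111754018 in library A, 68151997 in B and 64236917 in C. Between 67.0% and 70.1% of these lay on the 2 most abundant transcripts of the assembly, which left 33450738, 22487890 and 19747416 counts for all others. Levels are given as RPKM, that is reads per kilobase of transcript and 1000000 counts of the library, as means ± SD over the 3 libraries. The lowest level that can be read was set at 3 counts, or 0.0268 CPM (reads per 1000000 counts, without the length) in A, 0.0440 in B and 0.0467 in C. Fewer living hyphae and less RNA per hypha cannot be told apart in such bulk samples. Product names were carried over from entries of other fungi, so the sugars that these proteins move in V. comedens were not measured.

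Sugar transporter transcripts took few reads in all 3 libraries, and between 38.4% and 68.1% of those reads lay on a single transcript. The 27 transcripts together had 5441 reads in library A, 3003 in B and 4969 in C. Relative to all counts this was 48.7 CPM (exact 95% interval 47.4 to 50.0) in A, 44.1 CPM (42.5 to 45.7) in B and 77.4 CPM (75.2 to 79.5) in C. These intervals, like the floor, cover counting error only. Per length, the sum was 30.6 RPKM in A, 26.3 in B and 38.3 in C, with a mean of 31.7 ± 6.11 (SD, n = 3). Of the 27, 14 had at least 100 reads over the 3 libraries, a share of 51.9%, against 50.7% of all annotated transcripts. The median level of the 27 was 0.408 RPKM ± 0.0520 (SD, n = 3), beside 0.500 ± 0.0768 (SD, n = 3) for all annotated transcripts.

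By product name, 11 transcripts matched entries named sugar transporter, 7 MFS monosaccharide transporter, 6 hexose transporter and 3 maltose permease. No entry was named as a glucose or xylose transporter, as a lactose permease, as a sugar permease or porter, or as a cellodextrin transporter, the carrier type known from Neurospora crassa for short cellulose fragments. The names therefore do not divide the set by glucose, xylose or cellobiose. MFS monosaccharide transporters summed to 15.3 RPKM ± 7.19 (SD, n = 3) and sugar transporters to 12.1 ± 1.18 (SD, n = 3). Maltose permeases summed to 3.46 RPKM ± 0.676 (SD, n = 3) and hexose transporters to 0.864 ± 0.872 (SD, n = 3).

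**Figure D1:**
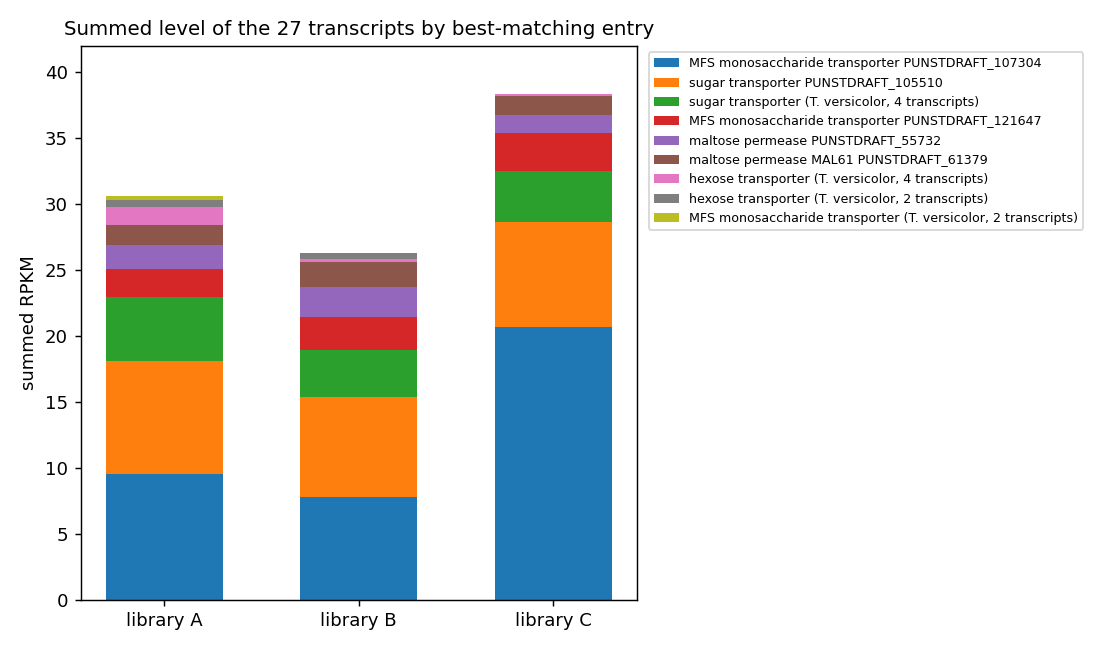
Summed RPKM (vertical axis) of the 27 sugar transporter transcripts in libraries A, B and C, stacked by best-matching database entry. The entry PUNSTDRAFT_107304 at the foot of each bar contributed 9.50, 7.78 and 20.7 RPKM, and the bars reach 30.6, 26.3 and 38.3 RPKM.

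The MFS monosaccharide transporters, carriers named for single sugars such as glucose and xylose, included the most abundant member. TRINITY_DN28385_c0_g1_i1, a transcript of 2890 bp matched to PUNSTDRAFT_107304 of Punctularia strigosozonata, a fungus of the same order, had 2488 reads in library A, 1152 in B and 3384 in C. Its level was 7.70 RPKM in A, 5.85 in B and 18.2 in C, a mean of 10.6 ± 6.68 (SD, n = 3). Library C stood above both others, and this member ranked first among the 27 in each library. In CPM the values were 22.3 (exact 95% interval 21.4 to 23.2), 16.9 (15.9 to 17.9) and 52.7 (50.9 to 54.5), so the libraries differed by more than counting error. It held 25.2%, 22.3% and 47.6% of the summed RPKM of the set in A, B and C, and 45.7%, 38.4% and 68.1% of the set's reads. Of the 22605 annotated transcripts, 2336, or 10.3%, had a higher mean RPKM.

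A further pair of assembler genes matched the same entry. TRINITY_DN19286_c0_g1_i1, of 1416 bp, had 267, 175 and 171 reads in A, B and C. Its level was 1.69, 1.81 and 1.88 RPKM, a mean of 1.79 ± 0.0979 (SD, n = 3). Relative to the mean this was the narrowest spread of the 14 members with at least 100 reads, at a highest to lowest ratio of 1.11. The 241 bp fragment TRINITY_DN9687_c0_g1_i1 had 3, 2 and 9 reads. These 2 longer transcripts thus shared a best match but not a profile over the libraries, as the most abundant one varied 3.12-fold.

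The other monosaccharide transporter with appreciable reads was TRINITY_DN27505_c0_g1, matched to PUNSTDRAFT_121647. Its 2 isoforms, of 1859 and 1847 bp, took 51.5% and 48.5% of the gene's reads. Isoform TRINITY_DN27505_c0_g1_i2 was at 1.12, 1.31 and 1.42 RPKM in A, B and C, and TRINITY_DN27505_c0_g1_i1 at 1.04, 1.22 and 1.42. Both were lowest in A and highest in C, but their means of 1.28 ± 0.149 and 1.22 ± 0.190 RPKM (SD, n = 3) overlapped over the libraries. The rule for reads that fit several isoforms is not stated in the sources used here, so the near-equal division between them is a value of the deposited table and not a measure of splicing. All 4 monosaccharide transporter transcripts with at least 100 reads were highest in library C, as were 26.4% of annotated transcripts with that many reads. Of these 4, 2 were the isoforms of TRINITY_DN27505_c0_g1. Only for the most abundant member did C lie above B by more than counting error. For the others, the exact 95% intervals of CPM in B and C overlapped, so a lead of library C is not shown for the class.

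Entries named only as sugar transporter gave the second most abundant member. TRINITY_DN17550_c0_g1_i1, a fragment of 647 bp matched to PUNSTDRAFT_105510, had 421, 203 and 247 reads, or 5.82, 4.60 and 5.94 RPKM in A, B and C. Its mean was 5.46 RPKM ± 0.741 (SD, n = 3). It lay below the most abundant member within each library, although the range of 4.60 to 5.94 RPKM reached past that member's lowest library. By CPM, without the length, it took rank 3, at 3.53 ± 0.479 (SD, n = 3), behind a maltose permease at 3.73 ± 0.555 (SD, n = 3). The same assembler gene held a second isoform of 641 bp, TRINITY_DN17550_c0_g1_i2, that is not among the 27 because its best match, PUNSTDRAFT_126580, is named general substrate transporter. That isoform was at 6.64, 6.82 and 5.56 RPKM, so the product name alone placed one isoform inside the set and the other outside.

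PUNSTDRAFT_105510 was also the best match of TRINITY_DN22606_c0_g2, a gene with 5 isoforms of 1671 to 1828 bp. Together these isoforms summed to 2.11, 2.16 and 1.73 RPKM in A, B and C, a mean of 2.00 ± 0.236 (SD, n = 3). No isoform dominated, with shares of the gene's reads from 13.7% to 24.9%. The highest, TRINITY_DN22606_c0_g2_i5, had 83, 84 and 47 reads and 0.540 RPKM ± 0.171 (SD, n = 3). The lowest, TRINITY_DN22606_c0_g2_i3, had 69, 33 and 16 reads and 0.253 RPKM ± 0.105 (SD, n = 3). Between these lay TRINITY_DN22606_c0_g2_i2 at 0.446, TRINITY_DN22606_c0_g2_i1 at 0.416 and TRINITY_DN22606_c0_g2_i4 at 0.345 RPKM, and each neighbouring pair overlapped over the libraries. A 500 bp transcript of a neighbouring assembler gene, TRINITY_DN22606_c0_g1_i1, had 38, 27 and 10 reads.

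A sugar transporter entry of Trametes versicolor, a white-rot polypore, was matched by 4 transcripts of TRINITY_DN28209_c1. TRINITY_DN28209_c1_g2_i1, of 1043 bp, had 181, 124 and 114 reads and stood at 1.55, 1.74 and 1.70 RPKM in A, B and C, with a mean of 1.67 ± 0.101 (SD, n = 3). TRINITY_DN28209_c1_g1_i1, of 1281 bp, had 256, 122 and 86 reads and stood at 1.79, 1.40 and 1.05 RPKM, with a mean of 1.41 ± 0.372 (SD, n = 3). The first was nearly level over the libraries, while the second was highest in A and lowest in C. The remaining isoforms were short. TRINITY_DN28209_c1_g1_i2, of 398 bp, had 43, 8 and 0 reads, and TRINITY_DN28209_c1_g1_i3, of 295 bp, had 17, 3 and 21. Of the 12 T. versicolor-matched members, the 2 longer transcripts of this component alone had at least 100 reads.

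Maltose permeases, which in Saccharomyces cerevisiae import maltose together with protons, came from 1 assembler gene, TRINITY_DN29977_c0_g1. Its isoform TRINITY_DN29977_c0_g1_i1, of 2244 bp, matched maltose permease MAL61 (PUNSTDRAFT_61379) and had 395, 297 and 212 reads. That is 1.58, 1.94 and 1.47 RPKM in A, B and C, a mean of 1.66 ± 0.248 (SD, n = 3). Isoform TRINITY_DN29977_c0_g1_i3, of 2190 bp, matched another maltose permease, PUNSTDRAFT_55732, and had 351, 281 and 173 reads, or 1.43, 1.88 and 1.23 RPKM, a mean of 1.52 ± 0.334 (SD, n = 3). Both were highest in library B and lowest in C, the reverse of the most abundant monosaccharide transporter, which was lowest in B and highest in C. Of the 11455 annotated transcripts with at least 100 reads, 45.1% were highest in B and 4753 were lowest in C. The exact 95% intervals of CPM in A and B overlapped for TRINITY_DN29977_c0_g1_i1. The third isoform, TRINITY_DN29977_c0_g1_i2, of 790 bp, had 30, 19 and 7 reads, or 3.17% of the gene's reads. So isoforms of a single assembler gene had different best matches here too.

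**Figure D2:**
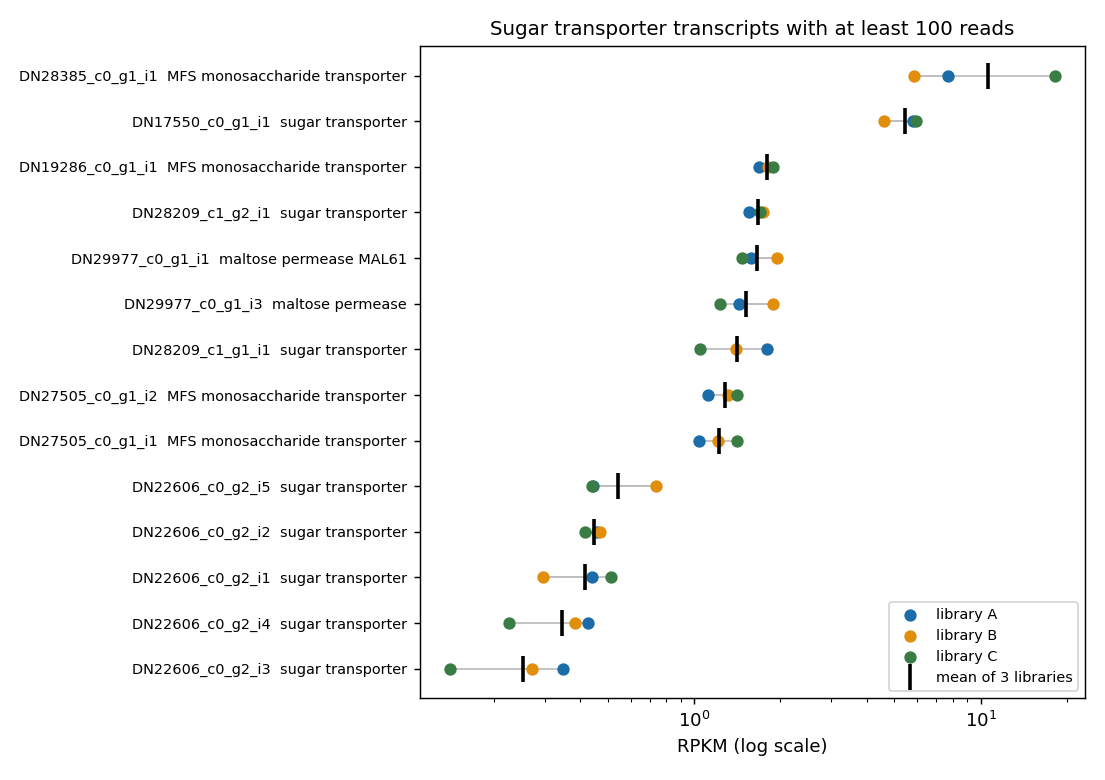
RPKM (horizontal axis, log scale) of the 14 sugar transporter transcripts with at least 100 reads, with 1 point for each of libraries A, B and C and a black bar at their mean. The top transcript ranges from 5.85 to 18.2 RPKM, the second from 4.60 to 5.94, and 7 others have means between 1.22 and 1.79 RPKM.

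In order of mean level, with isoforms of a gene ranked singly, the 14 members with at least 100 reads fell into steps. The first and second overlapped in range but kept their order in all 3 libraries, with a mean within-library ratio of 1.89 ± 1.02 (SD, n = 3). Between the second and the third the ranges did not overlap, with 4.60 RPKM as the lowest value of the one and 1.88 as the highest of the other. The third to the ninth, from 1.79 to 1.22 RPKM, overlapped from each to the next. Their ends were apart, since the lowest library of each of ranks 3, 4 and 5, at 1.69, 1.55 and 1.47 RPKM, lay above the highest value of ranks 8 and 9, at 1.42. Below them, all 5 isoforms of TRINITY_DN22606_c0_g2 lay apart, with a highest value of 0.738 RPKM against 1.04 as the lowest value above. Summed by assembler gene, these lower steps did not hold. TRINITY_DN22606_c0_g2 was then at 2.11, 2.16 and 1.73 RPKM in A, B and C, and TRINITY_DN27505_c0_g1 at 2.16, 2.53 and 2.83. Their means of 2.00 and 2.51 RPKM lay above the 1.79 of TRINITY_DN19286_c0_g1, the third in the order of transcripts.

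Hexose transporters, the name given in yeast to carriers of glucose and fructose, were represented only by short T. versicolor-matched fragments. All 6 had fewer than 100 reads and lengths of 219 to 483 bp, and together they had 81 reads in library A, 17 in B and 4 in C. TRINITY_DN13707_c0_g1_i1, of 483 bp, had the most, with 42, 6 and 4 reads, followed by TRINITY_DN13442_c0_g1_i1, of 356 bp, with 16, 7 and 0. TRINITY_DN38468_c0_g1_i1 had 12 reads in A and 0 in B and C. A pair of 277 and 286 bp fragments matched to a T. versicolor monosaccharide transporter, TRINITY_DN41133_c0_g2_i1 and TRINITY_DN41133_c0_g1_i1, had 8 and 3 reads in A and 0 in B and C.

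The thinly read T. versicolor matches were mostly highest in library A, as were such matches throughout the annotation. Of the 12 T. versicolor-matched members, 10 had fewer than 100 reads, and these had 152 reads in A, 28 in B and 25 in C, or 1.36, 0.411 and 0.389 CPM. In CPM, 8 of the 10 were highest in library A, and 5 had 0 reads in both B and C. Of all 8497 annotated T. versicolor matches with fewer than 100 reads and at least 1, 79.1% were highest in A and 45.5% had 0 reads in both B and C, so these counts are near the background. The exact 95% interval of a count of 0 reaches up to 0.0541 CPM in B and 0.0574 CPM in C. Among the thinly read P. strigosozonata matches, TRINITY_DN22606_c0_g1_i1 and TRINITY_DN29977_c0_g1_i2 were highest in B and TRINITY_DN9687_c0_g1_i1 in C. Over all read numbers, the 15 P. strigosozonata matches summed to 23.6, 22.04 and 34.3 RPKM in A, B and C. The 12 T. versicolor matches summed to 7.00, 4.22 and 3.98 RPKM. These sums are not matched for read number, as 12 of the 15 had at least 100 reads. The first sum includes 7.70, 5.85 and 18.2 RPKM of the most abundant member. Which organism the T. versicolor-matched fragments came from was not tested.

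**Figure D3:**
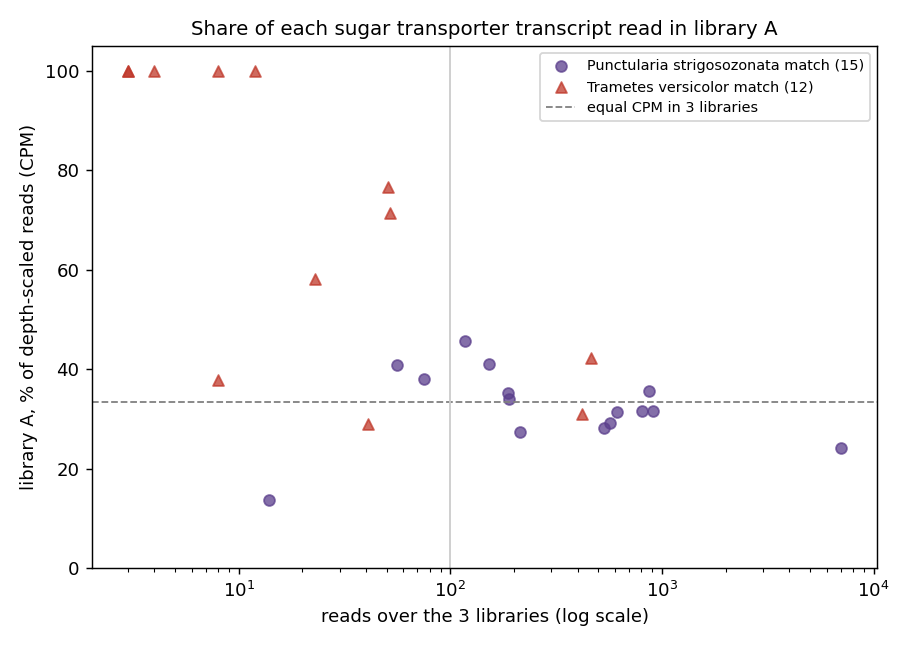
Share of depth-scaled reads (CPM) found in library A (vertical axis, %) against reads over the 3 libraries (horizontal axis, log scale) for the 27 sugar transporter transcripts, by species of the best match. The grey vertical line marks 100 reads and the dashed line equal CPM in the 3 libraries. Left of the grey line, 5 T. versicolor-matched transcripts lie at 100%.

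The summed level differed between libraries mainly through the most abundant member. Without TRINITY_DN28385_c0_g1_i1, the other 26 transcripts summed to 22.9, 20.4 and 20.1 RPKM in A, B and C, a highest to lowest ratio of 1.14 in place of 1.46. Groups within this sum differed more, with 1.76-fold between libraries for the T. versicolor matches and 14.2-fold for the hexose transporters. The latter ratio rests on only 81, 17 and 4 reads in A, B and C, all in thinly read T. versicolor matches. The mean share of that member, 31.7% ± 13.8 (SD, n = 3) of the summed RPKM, was 23.7% without library C. Among the 14 members with at least 100 reads, the median highest to lowest ratio was 1.45, and among all annotated transcripts with that many reads 1.47. Of these 14 members, 3 were highest in A, 5 in B and 6 in C, beside 28.5%, 45.1% and 26.4% of annotated transcripts with at least 100 reads. A ratio as large as the 3.12 of the most abundant member was found in 616 of the 11455 annotated transcripts with at least 100 reads, or 5.38%.

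Within the set, transcripts matched to the related species were longer and had higher levels. The 15 P. strigosozonata matches had a median length of 1726 bp and a median level of 0.685 RPKM ± 0.106 (SD, n = 3). The 12 T. versicolor matches had a median length of 356 bp and a median level of 0.168 RPKM ± 0.174 (SD, n = 3). Summed, the former exceeded the latter 3.37-fold in A, 5.22-fold in B and 8.62-fold in C. The same division held for the whole annotation, at 1.58 ± 0.0591 RPKM for P. strigosozonata and 0.129 ± 0.157 RPKM for T. versicolor (SD, n = 3). Compared within P. strigosozonata matches, the sugar transporters' median of 0.685 RPKM lay beside 0.808 ± 0.0461 for transcripts named general substrate transporter and 1.35 ± 0.0559 for carriers of peptides, amino acids and ammonium (SD, n = 3).

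**Figure D4:**
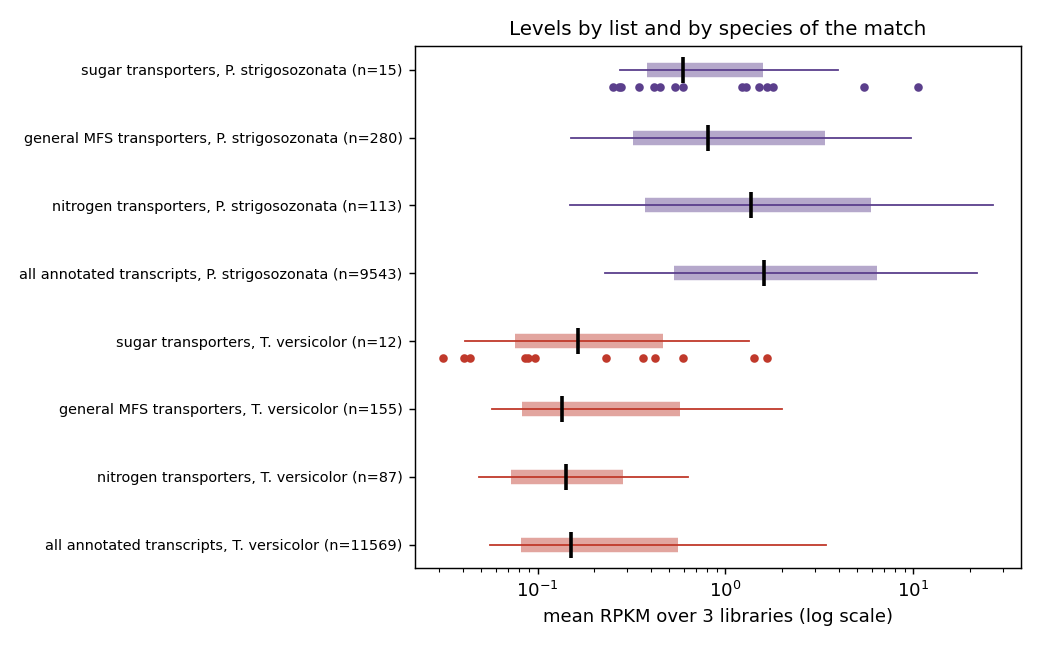
Mean RPKM over the 3 libraries (horizontal axis, log scale) of sugar transporters, other transporter lists and all annotated transcripts, split by species of the match. Thick bars span the 25th to 75th percentiles, thin lines the 10th to 90th, black ticks mark medians over transcripts, and dots are the single sugar transporter transcripts. Medians for P. strigosozonata matches run from 0.595 RPKM for sugar transporters to 1.60 for all annotated transcripts.

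Transporters of other names carried far more reads. The 441 transcripts named general substrate transporter, a broad name for MFS proteins that does not state the cargo, summed to 1850 RPKM ± 275 (SD, n = 3), and 32 of them had a higher mean than the most abundant sugar transporter. The highest, TRINITY_DN23542_c0_g1_i1, was at 208, 294 and 152 RPKM in A, B and C. The 202 transcripts for nitrogen carriers summed to 1231 RPKM ± 138 (SD, n = 3), 27 of them above the most abundant sugar transporter. The highest, the oligopeptide transporter TRINITY_DN29576_c4_g1_i1, was at 226, 265 and 224 RPKM. In these libraries the general substrate transporters therefore exceeded the sugar transporters in summed level 55.7-fold, 82.5-fold and 43.7-fold, and the nitrogen carriers did so 42.1-fold, 50.6-fold and 28.0-fold. Both lists hold more transcripts than the set of 27. Of all annotated transcripts, 2336 of 22605, or 10.3%, had a higher mean than the most abundant sugar transporter. The 32 of 441 general substrate transporters are a smaller share than this, and the 27 of 202 nitrogen carriers a somewhat larger one.

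Genes acting before and after uptake were compared by summed RPKM. Enzymes that release soluble sugars, among them beta-glucosidases, alpha-glucosidases, glucoamylases and trehalases, numbered 81 transcripts, 46 of them with at least 100 reads. Their sum was 132 RPKM in A, 107 in B and 165 in C, which was 4.30, 4.07 and 4.31 times that of the sugar transporters. The mean ratio was 4.23 ± 0.134 (SD, n = 3). Its narrow range rests on the most abundant transporter, without which, in a setting chosen after seeing the data, the ratios were 5.74, 5.24 and 8.23. The highest of these enzymes, the beta-glucosidase TRINITY_DN29643_c0_g1_i2, which splits cellobiose into glucose, was at 9.70, 16.7 and 34.2 RPKM. Its best match was an entry of Stereum hirsutum. The next, the beta-glucosidase TRINITY_DN30308_c1_g3_i2, was at 12.1, 9.96 and 24.3 RPKM. Like the most abundant monosaccharide transporter, both were highest in library C, and the second also had the order B, A, C. Of the 46 enzyme transcripts with at least 100 reads, 12 were highest in A, 14 in B and 20 in C. Library C was thus the most frequent highest library of the list, though not that of most of its transcripts. Over annotated transcripts with that many reads the most frequent was B, with shares of 28.5%, 45.1% and 26.4% in A, B and C.

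Proton pumps of the plasma membrane, which drive symport, had another profile. The list held 30 transcripts, 10 with at least 100 reads, and 3 of the 30 were named only as subunits of a proton ATPase. It summed to 67.6, 45.3 and 41.5 RPKM in A, B and C, a mean of 51.5 ± 14.1 (SD, n = 3). The highest, TRINITY_DN29748_c0_g1_i2, was at 26.2, 20.5 and 19.8 RPKM. The ratio of pumps to transporters was 2.21 in A, 1.73 in B and 1.08 in C. Without the most abundant transporter it was 2.95, 2.22 and 2.06. The other 26 transporter transcripts were also highest in A, at 22.9, 20.4 and 20.1 RPKM, but nearly level between B and C. Of these sums, 7.00, 4.22 and 3.98 RPKM came from the T. versicolor matches, most of them thinly read. These matches fell from A to B and C by at least as much as the 26 did, so the lead of A rests on them.

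Kinases of the first step after uptake were at about the level of the carriers. The word list found 10 transcripts, 4 with at least 100 reads, that summed to 25.9, 29.8 and 31.3 RPKM in A, B and C. The hexokinase TRINITY_DN28916_c0_g1_i1 stood at 11.1, 10.8 and 15.0 RPKM, a mean of 12.3 ± 2.32 (SD, n = 3), and the galactokinase TRINITY_DN27132_c0_g1_i1 at 6.45, 9.21 and 9.89. Sugar transporters summed to 1.18, 0.881 and 1.23 times the kinases, a mean of 1.10 ± 0.188 (SD, n = 3), so the direction was not the same in all 3 libraries. The list took in the glycolytic enzyme 6-phosphofructokinase, and without it the transporters were higher in each library, at 1.49, 1.19 and 1.41 times the kinases.

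For xylose, which fungi reduce to xylitol and oxidise to xylulose, the list of 10 transcripts summed to 58.2, 48.1 and 53.8 RPKM, a mean of 53.4 ± 5.03 (SD, n = 3). Nearly all of it was xylitol dehydrogenase, led by TRINITY_DN30002_c0_g1_i2 at 20.3, 14.9 and 17.2 RPKM. The 3 highest transcripts, with means of 17.5, 14.1 and 11.6 RPKM, were all isoforms of TRINITY_DN30002_c0_g1, so most of the sum rests on 1 assembler gene. D-xylose reductase and D-xylulose kinase were each matched by 1 T. versicolor-matched fragment, with 2, 0 and 7 and with 2, 0 and 5 reads. Pentose enzymes exceeded the sugar transporters in all 3 libraries, by 1.90-fold, 1.83-fold and 1.40-fold. Words for inositol, mannitol, glycerol and other polyol carriers matched 0 transcripts. The words for sugar sensing and glucose repression matched 8, all of them creatinases taken in by the letters of the repressor name CreA, so no level is given for that group.

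**Figure D5:**
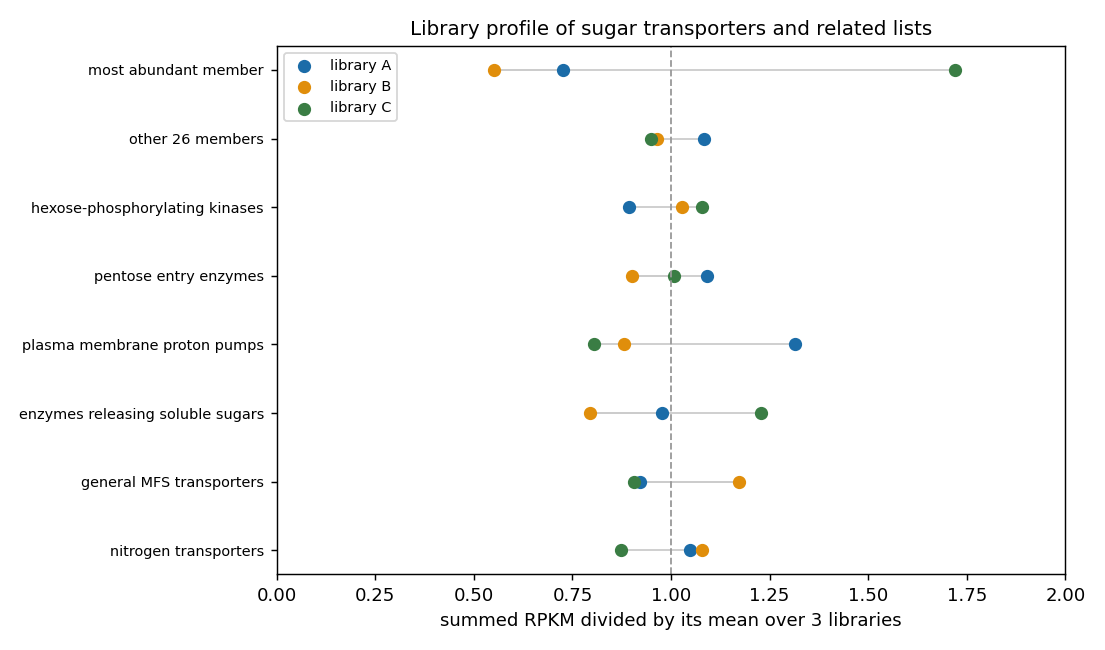
Summed RPKM of each list in libraries A, B and C, divided by its mean over the 3 libraries (horizontal axis). The most abundant sugar transporter lies at 0.727, 0.552 and 1.72, while the other 26 members lie between 0.950 and 1.08.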

How the data were processed

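Poly(A) RNA was sequenced as stranded paired reads of 125 bp in 3 libraries of 1 group, per the labels' protocols. The deposited table held raw read counts per assembled transcript with its length. The submitters' processing notes name cutadapt 1.2.1, Bowtie2 2.2.6 and SAMtools 0.1.19, with no roles. How transcripts were assembled and counted, and whether strand was used, is not stated in the sources used here. The deposited annotation is raw output of matching to the authors' own database, per the file headers, and repeated lines were dropped, which left 22605 of 29875. From the counts, CPM and RPKM were computed with Python 3.11.15 and pandas 2.3.3. Total counts of 64236917 to 111754018 set the precision, and exact (Clopper-Pearson) 95% intervals cover counting error only. With 1 group no test was made, and values are means ± SD over libraries. Where nothing else is said, no read or length filter was applied. Named transcripts were the up to 25 highest members by RPKM with at least 300 bp and 100 reads, the highest of each name class and related list, and members with at least 100 reads that differed at least 5-fold between libraries, of which there were 0. Members with fewer reads are named to account for the set. Members and lists were chosen with earlier results of these data known. Calculations were tested on simulated counts. Alternatives covered length, scaling with edgeR 4.0.16 and DESeq2 1.42.0, filters, assembler genes, product words and single libraries.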

Additional observations from a re-analysis of the deposited data

How the results depend on the processing

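No paired analysis was possible because the series holds 1 group, whose count columns carry no replicate numbers. No result turned its direction, except that sugar transporters lay below the kinases, at 0.977, without the length. Without division by length, the sum was 56.7 CPM, the median 0.476 CPM, the share of the most abundant member 50.7%, the highest to lowest ratio 1.76 and the P. strigosozonata to other ratio 13.1. Scaled to the counts outside the 2 most abundant transcripts, which raises all levels alike within a library, the sum was 102 RPKM, the median 1.31 and the highest to lowest ratio 1.57. With edgeR's TMM or DESeq2's size factors, no library shifted by more than 0.0473 on the log2 scale, and these 6 results stayed within their spread or interval. The median was 0.626 RPKM with at least 10 reads, 1.16 with at least 500 bp and 0.572 by assembler gene. With at least 500 bp the P. strigosozonata ratio was 8.77. Leaving out 1 library gave sums of 28.4 to 34.5 RPKM, medians of 0.384 to 0.436, shares of 23.7% to 36.4%, highest to lowest ratios of 1.17 to 1.46, kinase ratios of 1.03 to 1.204 and P. strigosozonata ratios of 4.30 to 6.92. Requiring the words transporter, permease or porter removed no member. Chosen after seeing the data, P. strigosozonata matches alone had a median of 0.685 RPKM and a highest to lowest ratio of 1.56, the set without its most abundant member a ratio of 1.14, and kinases without 6-phosphofructokinase a ratio of 1.36. The causes of these shifts were not tested beyond what each setting changes by construction. Depth limits the 13 members under 100 reads, whose levels rest on few counts.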

Other observations

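Of the transcripts with the broad name, 80 matched entries called general substrate transporter without the word MFS, and this list was chosen after its values were seen. It is the name under which an isoform of the sugar transporter gene TRINITY_DN17550_c0_g1 fell. The 80 transcripts summed to 314 RPKM ± 11.4 (SD, n = 3), with 322 in library A, 319 in B and 301 in C, which was 10.5, 12.2 and 7.85 times the sum of the named sugar transporters. The highest were TRINITY_DN28795_c0_g1_i1 at 48.03, 37.9 and 41.1 RPKM and TRINITY_DN27488_c0_g1_i1 at 31.8, 48.8 and 39.6 RPKM, both matched to T. versicolor and of 1825 and 1815 bp. The third, TRINITY_DN25243_c0_g1_i1, matched to PUNSTDRAFT_107428, was at 34.3, 38.03 and 30.7 RPKM. The deposited annotation does not state what these proteins carry.

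Next to the maltose permease gene, the assembler placed 3 unannotated fragments of 278, 318 and 364 bp in the same component. They had 21, 28 and 32 reads, and their levels of 0.291, 0.326 and 0.353 RPKM were below those of both long maltose permease isoforms.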
